A study of Mus musculus with 20 samples.

Results

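Of 8 neutrophil receptor and granule genes, 4 (Csf3r, Fpr2, Ngp and Ltf) varied together among untreated and among probiotic colitis mice. Over all mice of these groups, Cd177 did not vary with them. It was high in untreated colitis mouse 6 and probiotic colitis mouse 8, where the other 4 genes were lowest in their group. Among the remaining untreated colitis mice, Cd177 had the order of Csf3r and Fpr2. All 5 genes had their lowest colitis mean with cyclosporine. The genes are Cd177, Csf3r, Fpr1, Fpr2, Ngp, Camp, Ltf and Ly6g, all known from neutrophils. They were taken by symbol, and were chosen by what these arrays show of Cd177 and other neutrophil genes in colitis against untreated healthy mice, so that the values of that contrast are given below as a description. Of the 8 genes, 7 had a probe set with values under their symbol, 1 each, and 6 passed the filter on dim probe sets, out of 21423 genes with a probe set and 16739 past the filter. Fpr1 is named only. Camp stayed dim, with 2 of 20 arrays above the filter level of 5.30 on the log2 scale, and its values are given without a test.

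The study measured total RNA of the middle colon on Affymetrix arrays, 1 array per mouse, and asks by its title how a new probiotic mixture acts in colitis caused by dextran sulphate sodium (DSS). All 20 mice were female C57BL/6JOlaHsd, an inbred strain without an engineered allele in the labels, about 11 weeks old, in 5 groups of 4. Healthy mice were untreated, which in this study means saline, or were given the probiotic. Colitis mice had 3% DSS in their water for 5 days; the polymer damages the lining of the colon. They were untreated (saline), or were given the probiotic, or cyclosporine A at 25 mg/kg by mouth each day from day 1 to day 15. The probiotic mixture held the strains L930BB and IM386 in saline and went by stomach tube before and during DSS. No healthy group received cyclosporine, which inhibits calcineurin and so the activation of T cells. The colon piece holds epithelium, muscle and immune cells together, so fewer cells of a type and less RNA per cell cannot be told apart in any value below. Over all tested genes, 3 arrays known from earlier results to stand apart were each the farthest of their group from the mean of its other arrays: mouse 2 of untreated healthy (root mean square distance 0.255 on the log2 scale), mouse 6 of untreated colitis (0.297) and mouse 8 of probiotic colitis (0.312), against 0.162 to 0.275 for the other arrays, with mouse 7 of untreated colitis next to mouse 6. Test results are given with and without these 3 where they change. Correlations were not taken without all 3.

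Neutrophils are short-lived blood cells that enter injured tissue within hours and are the first leukocytes to gather in an inflamed colon. Granulocyte colony-stimulating factor, sensed through Csf3r, drives their formation and release. The receptors Fpr1 and Fpr2 steer them towards formylated bacterial peptides and products of damaged cells, and Fpr2 is also found on monocytes and on some epithelial cells. Ngp, Camp and Ltf are proteins of the secondary granules, loaded while the cell matures in bone marrow: Ngp is a cystatin-like protein, Camp the cathelicidin precursor and Ltf lactoferrin, which binds iron and is also made by glandular epithelia. Ly6g is the antigen by which mouse neutrophils are sorted. Cd177 is a lipid-anchored surface protein of neutrophils that binds the adhesion molecule Pecam1.

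Windows at a transcript start of Cd177 and of the 4 genes that varied together are shown because the levels of Cd177 did not follow the other 4 within groups. The Csf3r window lies inside the gene, which begins at base 126023441, so it belongs to a later transcript start. RefSeq promoter windows (build GRCm38.p6, 250 bases before to 50 after the start of the transcript) were found for all 8 genes. Each is written 5′ to 3′ on the strand of the gene in lower case, and capitals mark a match on either strand to 1 of 4 searched motifs, none of which overlapped another in these windows.
Cd177 chr7:24760262-24760561 (- strand): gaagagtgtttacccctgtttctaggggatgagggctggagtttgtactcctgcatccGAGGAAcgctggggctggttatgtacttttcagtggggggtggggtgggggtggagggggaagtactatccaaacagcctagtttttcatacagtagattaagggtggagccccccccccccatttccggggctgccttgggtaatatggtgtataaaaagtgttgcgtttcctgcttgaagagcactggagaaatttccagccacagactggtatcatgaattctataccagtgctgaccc
Csf3r chr4:126024409-126024708 (+ strand): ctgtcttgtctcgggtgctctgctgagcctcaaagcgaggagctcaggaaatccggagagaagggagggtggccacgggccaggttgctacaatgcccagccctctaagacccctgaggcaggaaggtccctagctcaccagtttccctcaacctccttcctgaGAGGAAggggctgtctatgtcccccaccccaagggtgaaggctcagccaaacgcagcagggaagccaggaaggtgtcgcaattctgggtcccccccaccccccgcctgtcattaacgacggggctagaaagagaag
Fpr2 chr17:17887574-17887873 (+ strand): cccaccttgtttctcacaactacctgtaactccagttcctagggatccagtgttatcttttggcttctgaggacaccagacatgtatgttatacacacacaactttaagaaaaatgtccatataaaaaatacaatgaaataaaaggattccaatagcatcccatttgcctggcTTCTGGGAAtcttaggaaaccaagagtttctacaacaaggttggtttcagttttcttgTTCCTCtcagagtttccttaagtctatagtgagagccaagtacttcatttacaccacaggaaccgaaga
Ngp chr9:110419558-110419857 (+ strand): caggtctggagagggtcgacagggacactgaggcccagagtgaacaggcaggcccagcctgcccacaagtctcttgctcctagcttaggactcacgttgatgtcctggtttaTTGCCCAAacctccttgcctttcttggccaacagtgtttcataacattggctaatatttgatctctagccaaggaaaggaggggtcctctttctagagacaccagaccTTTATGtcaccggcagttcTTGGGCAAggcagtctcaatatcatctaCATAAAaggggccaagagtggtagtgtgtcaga
Ltf chr9:111019042-111019341 (+ strand): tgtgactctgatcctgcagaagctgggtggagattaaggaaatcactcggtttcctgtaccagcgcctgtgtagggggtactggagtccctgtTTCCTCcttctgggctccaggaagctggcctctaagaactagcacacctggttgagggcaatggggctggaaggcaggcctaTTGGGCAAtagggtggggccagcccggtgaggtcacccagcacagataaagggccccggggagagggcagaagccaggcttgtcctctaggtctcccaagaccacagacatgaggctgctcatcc
The motif GAGGAA, the core bound by PU.1 and other ETS factors, stood in the windows of 5 of the 8 genes (Cd177, Csf3r, Fpr2, Ltf and Ly6g) and in 28.3% of all 32851 windows. The C/EBP motif TTGCNNAA was found in Ngp, Ltf and Ly6g and in 10.8% of all windows. The STAT motif TTCNNNGAA was found in Fpr2 alone of the 8, against 8.3% of all windows, and the CDX motif TTTATG in Ngp alone of the 8, against 11.9%. The Cd177 window held 1 ETS match and no match to the other 3 motifs, and the Ngp window held 2 C/EBP and 2 CDX matches and no ETS match. A match is a description of letters and not evidence of binding.

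Cd177 was high in every untreated and probiotic colitis mouse. On the log2 scale its level in untreated healthy mice 2, 4, 6 and 7 was 8.90, 8.01, 8.10 and 8.17, and in probiotic healthy mice 4, 5, 6 and 7 it was 8.31, 8.17, 8.15 and 7.83. Untreated colitis mice 5, 6, 7 and 10 had 10.58, 11.44, 11.47 and 11.11, and probiotic colitis mice 3, 5, 7 and 8 had 11.12, 11.12, 11.16 and 11.37. Cyclosporine colitis mice 4, 7, 9 and 10 had 10.08, 9.58, 9.72 and 9.13. The 3 kinds of level did not overlap: all 8 healthy mice lay below all 4 cyclosporine mice, and these below all 8 other colitis mice. The order of the group means was probiotic colitis 11.19 ± 0.12 (SD, n = 4), untreated colitis 11.15 ± 0.41, cyclosporine colitis 9.63 ± 0.39, untreated healthy 8.29 ± 0.41 and probiotic healthy 8.11 ± 0.20. Neighbours in this order within colitis without cyclosporine, and within the healthy groups, differed by less than their spread.

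Csf3r, the receptor for granulocyte colony-stimulating factor, was spread widely among the same colitis mice. Its level ran from 6.02 to 6.18 in untreated healthy mice and from 6.31 to 6.44 in probiotic healthy mice. In untreated colitis mice 5, 6, 7 and 10 it was 7.44, 6.33, 8.86 and 7.73. In probiotic colitis mice 3, 5, 7 and 8 it was 9.36, 9.29, 9.50 and 7.16, and in cyclosporine mice 4, 7, 9 and 10 it was 6.30, 6.69, 6.56 and 6.57. Untreated colitis mouse 6 thus lay within the range of the probiotic healthy mice, and probiotic colitis mouse 8 lay well below the other 3 mice of its group. For Cd177 these 2 mice were the second highest and the highest of their groups. The SD of Csf3r was 0.07 and 0.06 in the healthy groups, 1.04 and 1.12 in untreated and probiotic colitis and 0.17 with cyclosporine. In probiotic colitis 99.7% of tested genes had a smaller SD than Csf3r and 52.1% a smaller SD than Cd177. In untreated colitis these shares were 99.6% and 95.2%, so that Cd177 was close to the typical gene in its spread in the first group alone.

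Fpr2, the formyl peptide receptor with a measured probe set, had the same lowest mice as Csf3r. Its level was 4.80, 4.36, 7.64 and 6.01 in untreated colitis mice 5, 6, 7 and 10 and 8.10, 7.32, 7.57 and 5.28 in probiotic colitis mice 3, 5, 7 and 8. In the other 12 mice it ran from 4.05 to 4.96. Mouse 5 and mouse 6 of untreated colitis therefore lay inside the range of healthy mice and below the filter level, while mouse 7 was far above it. Of its relatives, Fpr-rs3 had group means of 5.14 to 5.28 in all 5 groups, and Fpr-rs4 and Fpr-rs6 did not pass the filter.

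The granule genes Ngp and Ltf were again lowest in untreated colitis mouse 6 and probiotic colitis mouse 8. Ngp was 6.02, 5.16, 8.69 and 5.81 in untreated colitis mice 5, 6, 7 and 10 and 8.09, 7.17, 7.84 and 5.05 in probiotic colitis mice 3, 5, 7 and 8, against 4.78 to 5.74 in healthy mice and 4.82 to 5.08 with cyclosporine. Ltf was 6.37, 6.06, 7.93 and 6.30 in the untreated colitis mice and 8.34, 7.57, 7.78 and 5.65 in the probiotic colitis mice, against 5.15 to 5.65 in healthy mice and 5.18 to 5.48 with cyclosporine. Probiotic colitis mouse 8 was within the healthy range for both genes, and untreated colitis mouse 7 was the highest of its group for both. Camp, the third granule gene, stayed between 4.22 and 5.46 on all 20 arrays. Its 2 arrays above the filter level were untreated colitis mouse 7 and probiotic colitis mouse 3, the highest mouse of each group for Ngp and Ltf.

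Ly6g was bright and nearly level on every array, from 10.39 to 11.14, with group means between 10.59 and 10.81. Its whole range over 20 mice was 0.75, against 3.20 to 4.05 for Cd177, Csf3r, Fpr2, Ngp and Ltf. No group stood apart from the others for Ly6g. Whether its probe set reads Ly6g alone was not tested.

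**Figure D1:**
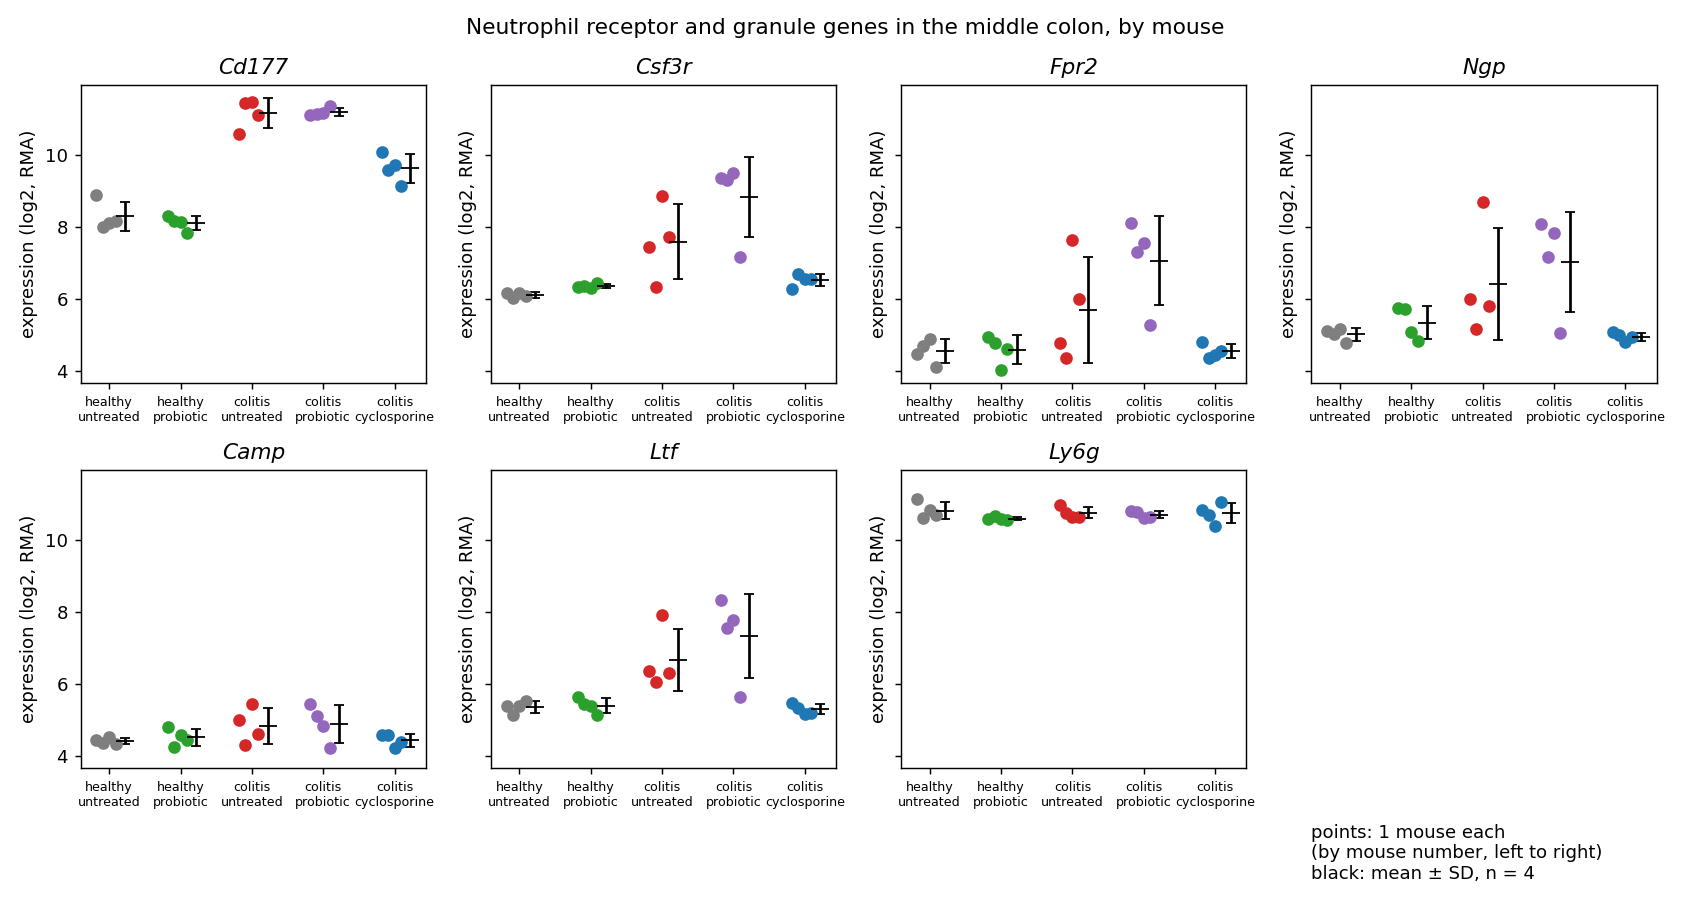
Level (log2, RMA) of the 7 measured genes in each mouse, with the mean and SD of 4 mice per group in black. Cd177 is high in untreated and probiotic colitis (11.15 ± 0.41 and 11.19 ± 0.12), Csf3r, Fpr2, Ngp and Ltf are more widely scattered there and low with cyclosporine, and Ly6g runs between 10.39 and 11.14 throughout.

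Against untreated healthy mice, untreated colitis gave a log2 difference of 2.86 for Cd177 (7.24-fold), 1.47 for Csf3r, 1.15 for Fpr2, 1.40 for Ngp, 1.29 for Ltf and -0.07 for Ly6g. All 4 colitis mice lay above all 4 healthy mice for Cd177, Csf3r, Ngp and Ltf, an arrangement found for 10.6% of tested genes. For Fpr2 and Ly6g the groups overlapped. In cyclosporine colitis, Cd177 was still 1.33 (2.52-fold) and Csf3r 0.41 above untreated healthy mice, with all 4 mice higher for both, as for 6.55% of tested genes. Fpr2 (0.00), Ngp (-0.06), Ltf (-0.07) and Ly6g (-0.08) overlapped with the healthy group. Both comparisons are descriptions, because the choice of the genes rests on them.

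In mice given the probiotic, Cd177, Csf3r, Fpr2, Ltf and Ngp rose with colitis and Ly6g did not pass the test. This comparison asks what DSS does under the probiotic. Its differences use no untreated array, while its standard errors and p-values come from the spread shared over all 20 arrays, the untreated ones included. Cd177 rose by 3.08 ± 0.21 (log2 difference ± standard error, n = 4 mice per group), which is 8.44-fold, and Csf3r by 2.47 ± 0.43 (5.52-fold). Fpr2 rose by 2.46 ± 0.56, Ltf by 1.92 ± 0.42 and Ngp by 1.69 ± 0.60. In the limma fit across all genes the Benjamini-Hochberg adjusted p was 5.42e-08 for Cd177, 0.000256 for Csf3r, 0.0024 for Fpr2, 0.00159 for Ltf and 0.0404 for Ngp. These are 5 of the 6 tested genes, where 13.6% of all tested genes were called higher. Ly6g differed by 0.11 ± 0.12 (adjusted p = 0.544). Fpr2 lay under the filter level on every healthy array and Ngp on most of them, so that both were tested because of their colitis values, and the count of 5 is no support of its own. The call for Ngp was lost with trend and robust moderation (limma adjusted p = 0.0656) and without any 1 of 7 of the 8 mice (up to 0.14), the exception being probiotic colitis mouse 8, without which it was 0.00182. The other 4 calls held in all 8 fits that left out a mouse, and 5 genes were called without the 3 arrays that stand apart.

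Other neutrophil genes were higher in the same comparison. Of 23 other neutrophil surface genes tested, 22 rose and 0 fell, with a median difference of 1.53 against -0.04 for all tested genes. Of all tested genes, 13.6% were called higher and 16.1% lower. A gene of these lists could pass the filter through its colitis values alone, so the counts are no support of their own. Fcgr4, an activating receptor for antibody (2.84 ± 0.36), Itgb2, the leukocyte integrin chain (1.81 ± 0.25), Selplg, the ligand of P-selectin (1.92 ± 0.27) and Tnfrsf1b, a receptor for tumour necrosis factor (1.53 ± 0.22), had the smallest p. Of 18 other granule and cytosol genes, 16 rose and 1 fell, with a median of 1.71. Among them Hp, haptoglobin, rose by 2.34 ± 0.50, Hdc, the enzyme that makes histamine, by 1.81 ± 0.45, Lyz2, lysozyme, by 1.72 ± 0.22 and Pglyrp1, which binds bacterial cell wall, by 0.93 ± 0.12. These lists do not mark neutrophils alone: of 14 macrophage and monocyte markers 11 rose too, and Lyz2 is known from macrophages as well. Markers of T and B lymphocytes rose in 10 of 10, with a median of 1.80.

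Genes that call in and guide neutrophils were measured as a list of 15. Of these, 10 rose and 0 fell in probiotic colitis against probiotic healthy mice, with a median of 0.72. Of all tested genes, 13.6% were called higher and 16.1% lower. Cxcl5, a chemokine read by Cxcr2, rose by 2.75 ± 0.47, Icam1, the endothelial partner of leukocyte integrins, by 1.30 ± 0.22, Itgal, an integrin chain, by 1.72 ± 0.22, and Anxa1, a ligand of Fpr2, by 0.72 ± 0.09. Csf3, the ligand of Csf3r, did not pass the filter, with group means of 4.85 to 5.22. Of 12 granulocyte transcription factors 5 rose, 1 fell and 6 did not pass. Spi1, which encodes PU.1 (1.29 ± 0.21), Ets1 (1.14 ± 0.19) and Runx1 (0.82 ± 0.11) rose, and Myb, a factor of proliferating cells, fell by 0.54 ± 0.11.

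Ly6g differed from several relatives of its family. Of 17 genes of the Ly6 and three-finger domain family tested, Cd177 and Ly6g included, 7 rose and 2 fell with colitis in probiotic mice. Of all tested genes, 13.6% were called higher and 16.1% lower. The other 8 of the family did not pass, and the family median was 0.11, the value of Ly6g itself. Ly6i, a gene of monocytes and other myeloid cells, rose by 3.19 ± 0.57, Ly6d by 2.01 ± 0.31, Plaur, the urokinase receptor, by 1.30 ± 0.32 and Ly6g2 by 0.75 ± 0.16. Ly6g6c (-0.47 ± 0.12) and Ly6g6d (-0.34 ± 0.11) fell. The family is large and its members are alike in sequence, and whether probe sets of close relatives share signal was not tested.

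Cyclosporine colitis lay below probiotic colitis in 5 of the 6 tested genes, where 12% of all tested genes were called lower. This comparison sets the 2 treatments side by side. The log2 differences were -2.51 ± 0.56 for Fpr2 (limma adjusted p = 0.00342), -2.30 ± 0.43 for Csf3r (0.001), -2.08 ± 0.60 for Ngp (0.0171), -2.03 ± 0.42 for Ltf (0.00181) and -1.57 ± 0.21 for Cd177 (9.81e-05). Every cyclosporine mouse was below every probiotic colitis mouse for Cd177, Csf3r, Fpr2 and Ltf, as for 11.1% of tested genes, and for Ngp probiotic colitis mouse 8 overlapped. Ly6g differed by 0.03 ± 0.12 (adjusted p = 0.882). Fpr2 and Ngp lay under the filter level on every cyclosporine array and were tested because of the other colitis groups, so this count of 5 is no support of its own either. The Ngp call was lost without probiotic colitis mouse 3 or 7 (limma adjusted p = 0.0698 and 0.0638). Because cyclosporine colitis and probiotic healthy mice are compared with the same probiotic colitis mice, the 2 sets of differences are not independent.

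The other neutrophil genes had low values with cyclosporine as well. Against probiotic colitis, 12% of all tested genes were called lower, and the median difference of all tested genes was 0.015. All 23 surface genes tested fell against probiotic colitis (median -1.42), with Selplg at -1.85 ± 0.27, Fcgr4 at -2.35 ± 0.36, Itgb2 at -1.55 ± 0.25 and Pirb, an inhibitory receptor, at -1.49 ± 0.26. Of the 18 granule and cytosol genes 15 fell and 1 rose (median -1.76), Cd63, a granule membrane protein of many cell types, being the one that rose, by 0.33 ± 0.07. Of the 15 recruitment genes 9 fell, among them Il1b, the interleukin that starts much of the recruitment, at -3.72 ± 0.71 and Cxcl5 at -2.54 ± 0.47. Macrophage markers fell in 9 of 14, and T and B lymphocyte markers in 10 of 10. The mean level of the 23 surface genes was 6.17 to 6.47 in cyclosporine mice, 6.82 to 8.40 in probiotic colitis, 6.41 to 8.22 in untreated colitis and 6.05 to 6.34 in healthy mice. The part of these cell types in the levels of the 8 genes was not tested.

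Against untreated colitis, Cd177 and Ltf were lower with cyclosporine past the threshold, while Csf3r, Fpr2, Ngp and Ly6g did not pass. The untreated colitis mice are those of the comparison that the choice of genes rests on, so these values are not independent of it. Cd177 fell by 1.52 ± 0.21 (2.87-fold, limma adjusted p = 0.000223), and Ltf fell by 1.37 ± 0.42 (adjusted p = 0.0365). Every cyclosporine mouse lay below every untreated colitis mouse for Cd177, Ltf and Ngp, as for 6.86% of tested genes. The values of Ngp (-1.46 ± 0.60, adjusted p = 0.118), Fpr2 (-1.14 ± 0.56, 0.192) and Csf3r (-1.06 ± 0.43, 0.114) were of like size with wide 95% intervals, for Csf3r from -1.97 to -0.15. Called were 2 of 6 genes, where 5.58% of all tested genes were called lower. The call of Cd177 held without any 1 mouse (adjusted p at most 0.00128), and that of Ltf was lost without untreated colitis mouse 7 or any 1 cyclosporine mouse (0.0586 to 0.13) and with trend and robust moderation (0.0555). Without untreated colitis mouse 6, Csf3r (0.0199) and Ngp (0.0477) passed too, and without the 3 arrays that stand apart 5 of the 6 genes passed, all except Ly6g. Mouse 6 was the lowest of its group for Csf3r, Fpr2, Ngp and Ltf, so leaving it out widens these differences. Fpr2 and Ngp lay under the filter level on every cyclosporine array and were tested because of the other colitis groups. These counts are thus no support of their own.

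In the same comparison, 4 of 23 other neutrophil surface genes and 5 of 18 granule and cytosol genes fell, with medians of -0.80 and -1.10. The median of all tested genes was -0.01, and 5.58% of them were called lower. The surface genes were Csf2rb, the shared chain of cytokine receptors (-0.73 ± 0.15), Tnfrsf1b (-0.83 ± 0.22), Pirb (-0.90 ± 0.26) and Cxcr2, the chemokine receptor of neutrophils (-1.66 ± 0.52). Hp (-2.56 ± 0.50), Pglyrp1 (-0.56 ± 0.12), Mmp9, a granule gelatinase (-1.58 ± 0.48) and Padi4, the enzyme of neutrophil extracellular traps (-0.52 ± 0.17), were the granule and cytosol genes with the smallest p. Among recruitment genes 3 of 15 fell, Cxcl5 (-1.93 ± 0.47), Il1b (-2.49 ± 0.71) and Icam1 (-0.70 ± 0.22).

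None of the 6 tested genes differed between probiotic and untreated colitis in the limma fit, where 2.8% of all tested genes were called in either direction. Cd177 differed by 0.04 ± 0.21, with a 95% interval from -0.40 to 0.49 on the log2 scale. Csf3r was 1.24 ± 0.43 higher with the probiotic (adjusted p = 0.129) and Fpr2 1.36 ± 0.56 higher (0.203), both at an unadjusted p under 0.05, and Ltf (0.67 ± 0.42, 0.43), Ngp (0.62 ± 0.60, 0.641) and Ly6g (-0.05 ± 0.12, 0.881) were not. This outcome rests on single mice. Without probiotic colitis mouse 8, Csf3r (1.80, adjusted p = 0.00335), Fpr2 (1.96, 0.0233) and Ltf (1.23, 0.0191) passed, and without untreated colitis mouse 7, Csf3r (1.66, 0.0298) and Fpr2 (2.01, 0.0265) passed. Without the 3 arrays that stand apart, Csf3r alone passed (1.38, 0.00321). Of other neutrophil genes, Selplg (1.22 ± 0.27), Fcgr4 (1.41 ± 0.36), Ptafr, the receptor for platelet-activating factor (1.03 ± 0.26) and Lyz2 (0.88 ± 0.22) rose and Cd63 fell by 0.26 ± 0.07. Beside these, 11 of 14 macrophage and monocyte markers rose, with a median of 0.83.

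Healthy mice showed no called change of the 6 genes under the probiotic, where 0% of all tested genes were called in limma and 1511 of 16739 had an unadjusted p under 0.05. None of the 6 had an unadjusted p under 0.05, and their values ran from -0.22 for Ly6g to 0.33 for Ngp. Csf3r differed by 0.25 ± 0.43, and all 4 probiotic mice (6.31 to 6.44) lay above all 4 untreated mice (6.02 to 6.18). The share of all tested genes separated in this way is not given here. Its SD was 0.06 and 0.07 in these 2 groups, but the standard error also holds the wide spread in colitis (SD 1.04 and 1.12). The test is therefore weak for a difference of this size in Csf3r. The difference of the colitis change between probiotic and untreated mice was 0.99 ± 0.61 for Csf3r (adjusted p = 0.675), 1.32 ± 0.80 for Fpr2 (0.666) and 0.22 ± 0.30 for Cd177 (0.873). None of the 6 passed and none had an unadjusted p under 0.05, with 0% of all tested genes called and 1446 at an unadjusted p under 0.05.

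**Figure D2:**
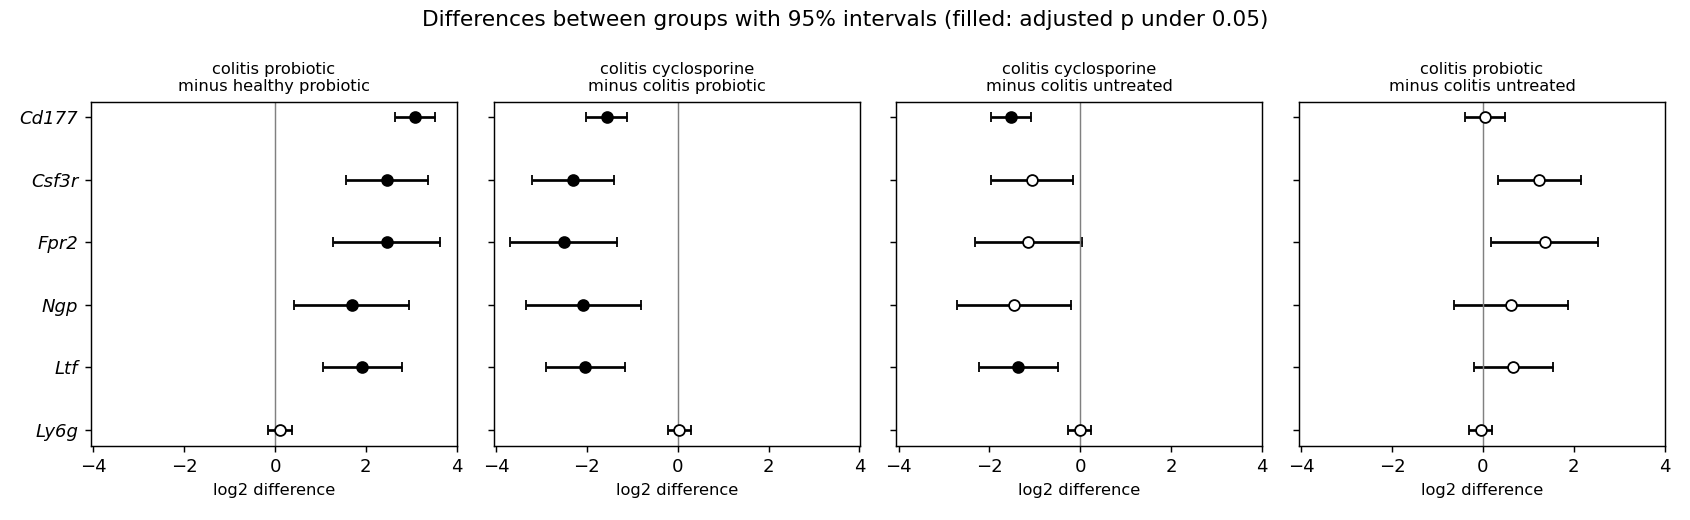
Log2 difference of the 6 tested genes in 4 comparisons, with 95% intervals from the limma fit; filled points have an adjusted p under 0.05. Cd177 has the narrowest interval of the 5 genes that moved and lies near 0 (0.04) only between probiotic and untreated colitis, while Ly6g lies near 0 in all 4.

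Among untreated and among probiotic colitis mice, Csf3r, Fpr2, Ngp and Ltf formed one block and Cd177 lay outside it. Over the 12 colitis arrays the Pearson correlation between any 2 of these 4 genes was 0.93 to 0.97. After the mean of each group was subtracted it was 0.88 to 0.95 over all 20 arrays. Camp, though dim, correlated with the 4 genes at 0.80 to 0.90 and 0.77 to 0.86. The values after subtraction rest mainly on untreated and probiotic colitis, where the SD of Csf3r was 1.04 and 1.12. In the other groups this SD was 0.06 to 0.17. Among cyclosporine mice Csf3r was lowest in mouse 4 (6.30), where Fpr2 (4.83), Ngp (5.08) and Ltf (5.48) were highest. Fpr2 and Ngp lay under the filter level there. For Cd177 the correlation with the 4 genes was 0.58 to 0.68 over the 12 colitis arrays and -0.11 to 0.10 after group means were subtracted. These are descriptions over arrays that share their groups, and the 12 colitis arrays hold the cyclosporine mice, which are low for all 5 genes. Without the cyclosporine mice, a choice made after seeing the data, the correlation of Cd177 over 8 arrays was -0.07 with Csf3r, 0.15 with Fpr2, 0.08 with Ngp and 0.03 with Ltf. The 2 mice farthest from the median of Cd177 there were untreated colitis mice 5 and 7. Leaving them out moved these values to between -0.85 and -0.72, so they rest on few mice. That choice kept untreated colitis mouse 6 and probiotic colitis mouse 8, and the correlation without those 2 was not computed. In untreated colitis mice 5, 10 and 7, Cd177 (10.58, 11.11 and 11.47) had the order of Csf3r (7.44, 7.73 and 8.86). Fpr2 had it too (4.80, 6.01 and 7.64), while Ngp and Ltf were lower in mouse 10 than in mouse 5.

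**Figure D3:**
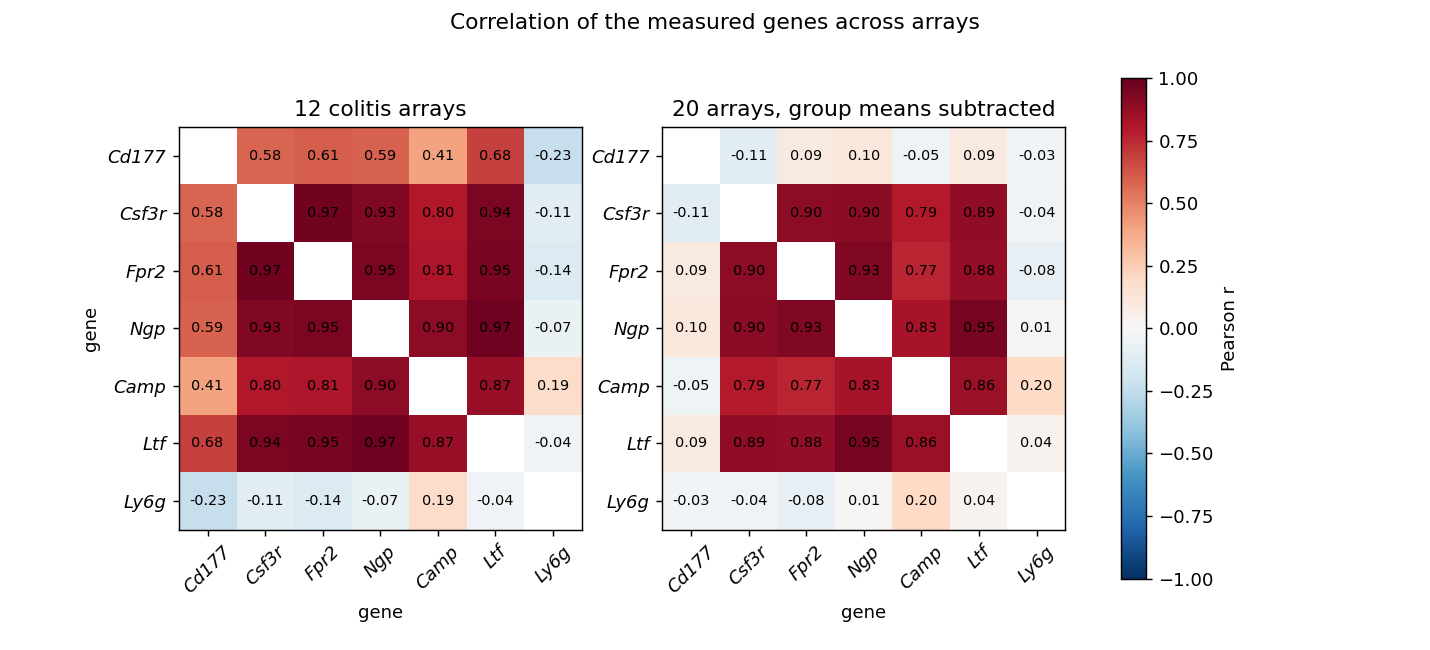
Pearson correlation between the 7 measured genes over the 12 colitis arrays (left) and over all 20 arrays after subtraction of group means (right). Csf3r, Fpr2, Ngp, Camp and Ltf form a block of high values, and Cd177 falls from 0.58 with Csf3r on the left to -0.11 on the right.

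**Figure D4:**
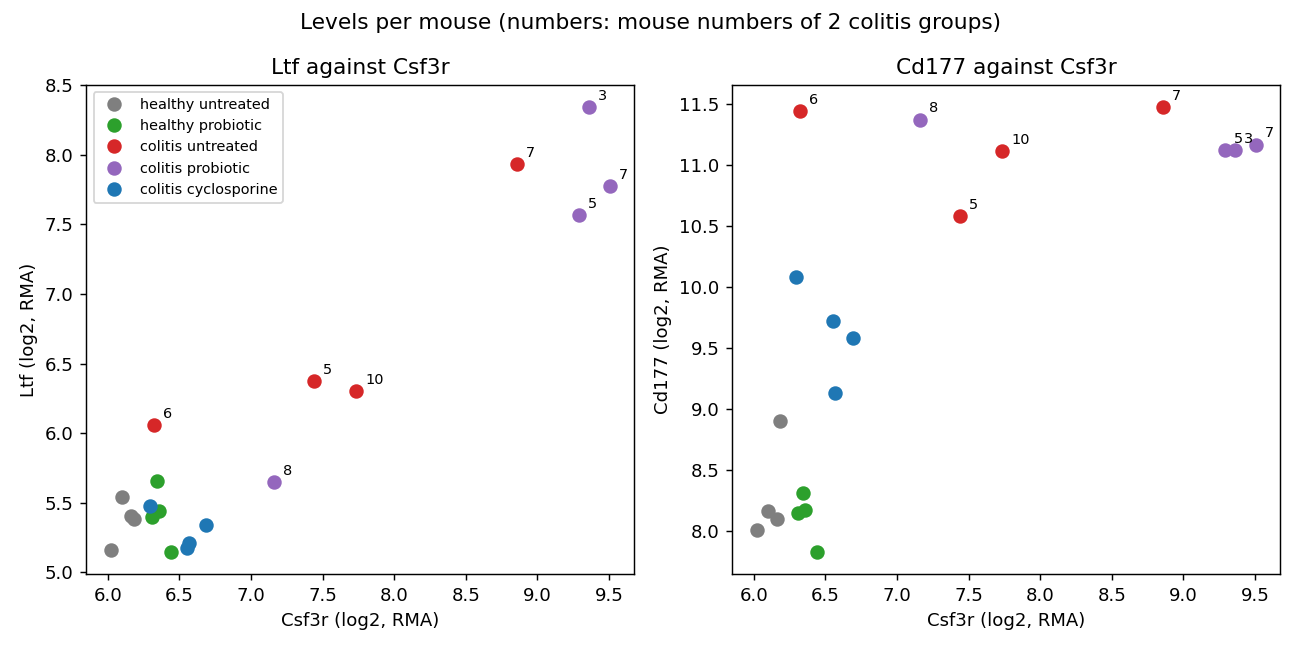
Level of Ltf (left) and Cd177 (right) against Csf3r in 20 mice, log2 values, with the mouse numbers of untreated and probiotic colitis. In untreated and probiotic colitis Ltf is higher where Csf3r is higher, while Cd177 lies between 10.58 and 11.47 over Csf3r levels from 6.33 to 9.50; Cd177 is at 9.13 to 10.08 in cyclosporine mice and at 7.83 to 8.90 in healthy mice.

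The distance between Cd177 and the mean of the other 6 measured genes was taken on each array. Read only as a change between arrays, it was 2.24 ± 0.38 in untreated healthy mice and 1.97 ± 0.13 in probiotic healthy mice, and 4.15 ± 0.85, 3.55 ± 1.01 and 3.54 ± 0.40 in untreated, probiotic and cyclosporine colitis. It was largest in untreated colitis mouse 6 (5.28) and probiotic colitis mouse 8 (5.03). Each had the lowest mean of the other 6 genes within its own group (6.16 and 6.33). That mean is a part of the distance, so this match is no support of its own.

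Among 16738 other tested genes the neutrophil genes were not those most like Cd177. Over the 12 colitis arrays Ltf ranked 725, Fpr2 1295, Ngp 1469, Csf3r 1583 and Ly6g 10936 by correlation with Cd177. Ranked by correlation with Csf3r, in contrast, Fpr2 was 29, Ltf 90 and Ngp 148, and Cd177 was 2397. The 8 genes most like Cd177 over these 12 arrays were Txndc5, a disulfide isomerase of the endoplasmic reticulum (r = 0.96), Ceacam10, an adhesion protein of the carcinoembryonic antigen family (0.96), Zfp703 (0.93), Plet1, a surface protein of epithelial progenitors (0.92), Chn2 (0.92), Ssr4, a protein of the translocon (0.92), Tmem120a (0.92) and Clca3a2 (0.92). After subtraction of group means over 20 arrays they were Actg1, a cytoskeletal actin (0.89), Ceacam10 (0.89), Alkal2 (0.87), Rpl13, a ribosomal protein (0.85), Stx12 (0.84), Ergic3 (0.82), Alkbh6 (0.82) and Adtrp (0.81). Ceacam10 was the one gene on both lists, and it stayed among the first 40 in all 17 settings tried.

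Ceacam10 is also the protein coding gene next to Cd177 on the chromosome in the RefSeq gene order. Its level was 10.04, 10.94, 10.96 and 10.79 in untreated colitis mice 5, 6, 7 and 10 and 10.47, 10.44, 10.57 and 10.88 in probiotic colitis mice 3, 5, 7 and 8. In cyclosporine mice 4, 7, 9 and 10 it was 10.09, 9.71, 9.90 and 9.46, and in healthy mice it ran from 8.63 to 9.72. As for Cd177, mouse 5 was the lowest of untreated colitis, mouse 8 the highest of probiotic colitis and mouse 10 the lowest with cyclosporine. Ceacam10 rose by 1.82 ± 0.19 with colitis in probiotic mice (limma adjusted p = 2.76e-06) and fell by 0.89 ± 0.19 (0.00527) and 0.80 ± 0.19 (0.00546) with cyclosporine against untreated and probiotic colitis. The next genes on either side were examined after Ceacam10 had been seen: Lypd11, Lypd10, Tex101 and Lypd3 on one side and Lypd4, Dmrtc2 and Rps19 on the other kept all 5 group means within 0.31 of each other. Cd79a, a B cell gene 5 genes away, had higher means in untreated and probiotic colitis than in healthy mice. Whether probes of Cd177 and Ceacam10 share signal was not tested.

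**Figure D5:**
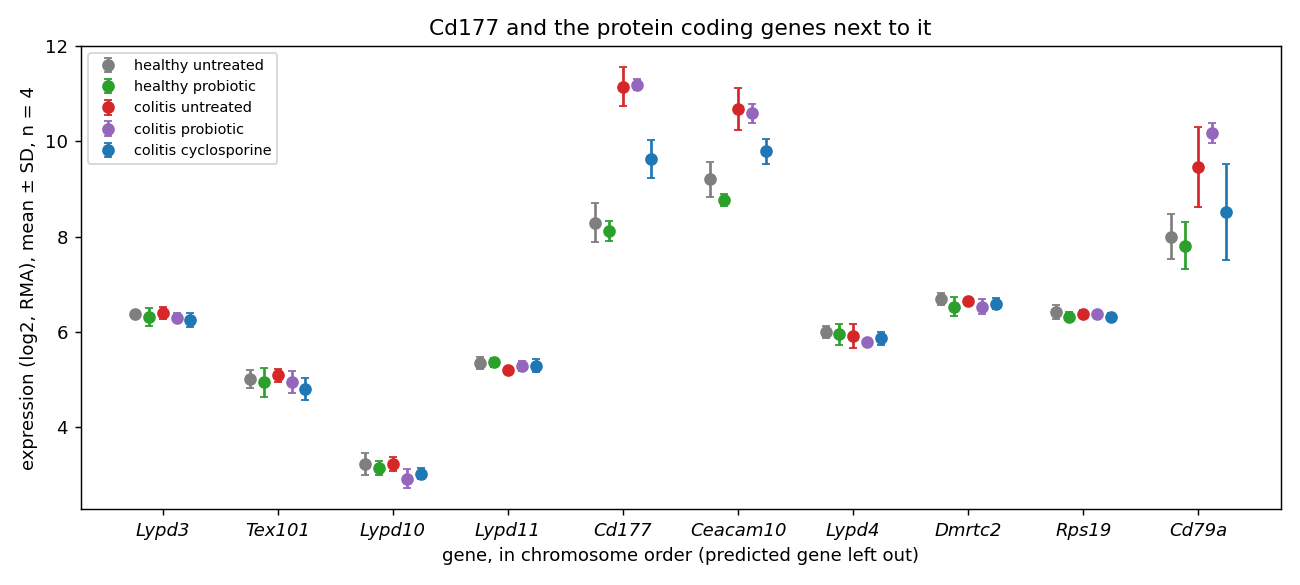
Mean and SD of 4 mice per group (log2, RMA) for Cd177 and the protein coding genes beside it, in chromosome order; a predicted gene is left out. Like Cd177, Ceacam10 is high in untreated and probiotic colitis (10.68 and 10.59), lower with cyclosporine (9.79) and lowest in untreated and probiotic healthy mice (9.21 and 8.77), while the other near genes are level apart from Cd79a.

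The correlation of marker lists with Cd177 and with Csf3r depended on the arrays taken. After subtraction of group means, the mean of 12 goblet cell markers correlated with Cd177 at 0.80 and with Csf3r at 0.14 over 20 arrays, and the mean of 11 pan-epithelial markers at 0.50 and -0.26. The mean of 23 other neutrophil surface genes correlated with Cd177 at -0.06 and with Csf3r at 0.96, and that of 14 macrophage markers at -0.25 and 0.83. For 12 markers of repairing epithelium it was 0.25 and 0.78, and for 11 surface colonocyte markers 0.21 and -0.44. Over the 12 colitis arrays without that subtraction, goblet markers and neutrophil surface genes correlated alike with Cd177, both at 0.63, and with Csf3r at 0.13 and 0.98. There the pan-epithelial markers stood at 0.00 with Cd177 and -0.49 with Csf3r, and the surface colonocyte markers at -0.81 with both. The repair markers stood at 0.84 with Cd177 and 0.89 with Csf3r, and the mean of 7 reference genes, chosen as genes that most cells use, at 0.86 and 0.62. Mast cell and eosinophil markers stood at 0.72 with Cd177 and 0.50 with Csf3r, and smooth muscle markers at -0.76 and -0.61. After subtraction of group means, these 3 lists stood at 0.34 and 0.17 (reference), 0.41 and -0.09 (mast cell and eosinophil) and -0.21 and -0.37 (smooth muscle). Goblet cell means ran from 10.34 to 10.63 in untreated healthy, 10.31 to 10.46 in probiotic healthy, 10.65 to 11.21 in untreated colitis, 10.56 to 10.84 in probiotic colitis and 10.40 to 10.81 in cyclosporine mice. Of the 12 goblet markers 5 rose and 1 fell with colitis in probiotic mice (median 0.07 against -0.04 for all tested genes, of which 13.6% were called higher and 16.1% lower). With cyclosporine against untreated colitis 5 fell (median -0.11 against -0.01, with 5.58% of all tested genes called lower), and Retnlb, an antimicrobial protein of goblet cells, had -2.78 ± 0.41. The part of epithelial cells in the level of Cd177 was not tested.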

How the data were processed

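The authors deposited log2 values per probe set, made with RMA per the submitters' processing notes; its version and probe set annotation were not found in these sources. Probe sets were named through the platform annotation, and RefSeq gave names, gene order and promoter windows. Named probe sets above 5.30 (the 25th percentile) on at least 4 of 20 arrays were kept, the brightest per gene, giving 16739 genes; 4684 were dim. All 20 arrays were fitted with group means in R 4.3.3 with limma 3.58.1 (lmFit, eBayes) at a Benjamini-Hochberg adjusted p under 0.05, and the fit was tested on simulated data. Biological replicates were 4 mice per group. The 8 genes and all lists were chosen with earlier results of these data known. Named were the 8 genes, up to 4 genes of a list with the smallest p, relatives of Fpr2 and Ly6g, and the 8 genes most like Cd177 by Pearson r. Array medians were 6.22 to 6.29; arrays have no read depth, and their number limits the precision. The fit shares 1 spread, although the neutrophil genes vary more in colitis than in health, and background compresses Fpr2 and Ngp in healthy mice. Alternatives were median centring, quantile normalization once more, a filter at the 50th percentile or none, trend and robust moderation, array weights, the mean of probe sets, mouse number as a block, the compared groups alone, and leaving out arrays. Same-numbered mice did not deviate together (r from -0.19 to 0.43, mean 0.03, over 20 pairs of same-numbered mice), so no pairs were formed. Cage was not analysed here.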

Additional observations from a re-analysis of the deposited data

Results flagged for a closer look

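In 2 of the 35 gene and group combinations 1 mouse stood far from the other 3; chance alone gives about 1 in 20. Csf3r was 7.16 in probiotic colitis mouse 8, where the next mouse had 9.29. In that mouse Fpr2, Ngp and Ltf were the lowest of the group too, and Cd177 was the highest (11.37). Ltf was 7.93 in untreated colitis mouse 7, where the next mouse had 6.37. Csf3r, Fpr2, Ngp and Cd177 were also the highest of the group in that mouse.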

How the results depend on the processing

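Cd177 kept its call in all 8 leave-outs and all 10 other settings of each of the 3 comparisons that called it. Without single mice, genes called ran from 371 to 1050 for cyclosporine colitis against untreated healthy mice (1008 with all), 71 to 1223 for probiotic against untreated colitis (468), 1353 to 2447 for cyclosporine against untreated colitis (2202) and 0 to 45 for the difference of the colitis change (0). Of the 6 genes, 0 to 3 passed for probiotic and 1 to 4 for cyclosporine against untreated colitis. Mouse number as a replicate block called 25 genes in the first of these comparisons, 219 in the next, 1 for the difference, and 2100 for cyclosporine against probiotic colitis (3890 without the block), and turned Cd177 to 0.11 in healthy probiotic mice and -0.11 in the difference of the colitis change, and Ly6g to 0.18 for cyclosporine against untreated colitis. With the block, Ngp was not called in probiotic colitis against probiotic healthy (adjusted p = 0.059) or cyclosporine colitis (0.0663). The compared groups alone gave 539, 0 and 1119 genes in the first 3 comparisons named and 19 for healthy probiotic mice. Array weights gave 1682 genes and 3 of the 6 for probiotic against untreated colitis, 5 genes for the difference, and Ly6g at 0.019 and 0.061 for probiotic and cyclosporine against untreated colitis. Trend and robust moderation left 1 of the 6 for cyclosporine against untreated colitis and lost the call of Ngp in probiotic colitis against probiotic healthy mice (0.0656). Without the 3 arrays that stand apart, 1 and 5 of the 6 passed for probiotic and cyclosporine against untreated colitis, 13 genes for the difference, and Cd177 was 0.023 in healthy probiotic mice. Where small values changed sign without 1 mouse, the ranges were -0.15 to 0.15 (Cd177) and -0.087 to 0.024 (Ly6g) for probiotic against untreated colitis, -0.12 to 0.10 and -0.070 to 0.15 (Ly6g) for cyclosporine against untreated and probiotic colitis, -0.27 to 0.023 (Cd177), -0.045 to 0.12 (Ltf) and -0.10 to 0.23 (Fpr2) for healthy probiotic mice, and -0.13 to 1.05 (Ngp) for the difference. The distance of Cd177 from the others was 3.10, 2.73 and 4.49 by their median and 3.19, 2.86 and 4.47 without Ly6g in untreated healthy, probiotic healthy and cyclosporine mice, and 1.65 in probiotic healthy mice over genes past the filter. Of the 8 genes most like Cd177, 2 stayed among the first 40 by Spearman rho and 1 over the 8 colitis arrays without cyclosporine. The cause of these changes was not tested.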
